A study of Homo sapiens with 6 samples.

Results

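The genes for mitochondrial ribosomal proteins were followed in HEK293 cells that carried the PKI1-24 fusion and in cells that carried its control. Members were the rows of the expression table whose gene symbol is MRPL or MRPS, a number and at most a final A, B or C. They came to 78 of 30960 rows, 49 named for the large subunit and 29 for the small one, and all 78 passed the filter on low values. The name rule used no measured value, but it was chosen with earlier results of these data known.

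HEK293 is a human embryonic kidney cell line. The PKI group held 3 libraries (PKI A, B and C) from cells transfected with a plasmid for GFP fused to PKI1-24, a piece of a protein kinase A inhibitor. The inPKI group held 3 libraries (inPKI A, B and C) from cells transfected with a plasmid for GFP fused to inPKI1-24, named as the control in the labels. Both groups received 158 ng of plasmid per square centimetre by lipofection, and RNA was taken after 48 h. The design text speaks of transduction and the protocol of transfection. The plasmid promoter and the share of cells that took up plasmid are not given in the sources used here. In RNA from a whole culture, fewer cells expressing a gene and less RNA per cell cannot be told apart. Separate cultures are not stated for the libraries of a group, so a p-value here sets a difference against the spread of these libraries alone, which may be technical.

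The mitochondrial ribosome makes the few proteins that mitochondrial DNA encodes, all of them parts of the respiratory chain and the ATP synthase. Its rRNAs come from mitochondrial DNA, while its proteins are encoded in the nucleus, made in the cytosol and imported. Some have a relative in the bacterial ribosome (systematic names with u or b). Others, most of those named with m, are found in mitochondrial ribosomes without one. The MRP genes are spread over the genome, here over 21 chromosomes. Protein kinase A, the cAMP-dependent kinase that PKI blocks, is known to act on the nucleus and also at mitochondria.

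Reads recovered from the deposited CPM (read counts scaled to the depth of a library) numbered 17244715 to 23589438 over the PKI libraries and 18707086 to 21387137 over the inPKI libraries. A member had 354 to 6484 reads in a library. PKIA, whose row may take reads from the plasmid, measured 43.9 ± 1.96 CPM in PKI and 9.68 ± 1.46 CPM in inPKI (SD, n = 3 each), 2.08 apart on the log2 scale, so the libraries separate by their labels. Among genes known in HEK293 cells, LIN28B measured 115 to 128 CPM, NEFM 118 to 136 CPM, NEFL 55.6 to 69.2 CPM, GATA3 5.51 to 8.02 CPM and PAX2 0.579 to 1.31 CPM over the 6 libraries. The leukocyte gene PTPRC was at 0 in all libraries but PKI A, where it had 1 read. The fibroblast gene COL1A1 measured 16.4 to 20.3 CPM and COL3A1 1.92 to 2.26 CPM. The keratinocyte gene KRT5 measured 9.84 to 26.5 CPM and KRT14 4.60 to 12.2 CPM, both highest in inPKI C. The part of these marker genes in the results was not tested.

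The promoter windows of 4 genes are shown here, picked for the values of these genes in the results described next. MRPL52 had the lowest log2 change of all members and MRPL11 the lowest adjusted p in the edgeR test, while MRPS30 and MRPS25 were the only members above 0. Each window holds the 250 bases before the start of the gene in RefSeq (GRCh38.p14), written 5′ to 3′ on the strand of the gene. The positions are chr14:22829637-22829886 (plus strand) for MRPL52, chr11:66438849-66439098 (minus strand) for MRPL11, chr5:44808697-44808946 (plus strand) for MRPS30 and chr3:15065316-15065565 (minus strand) for MRPS25. Capitals mark a match to a motif on either strand, AANATGGCG (YY1, N being any base) in MRPL52, which held it 2 times, and TGACG (the half-site of the CREB element) in MRPS30. MRPL11 and MRPS25 held none of the motifs searched.
MRPL52: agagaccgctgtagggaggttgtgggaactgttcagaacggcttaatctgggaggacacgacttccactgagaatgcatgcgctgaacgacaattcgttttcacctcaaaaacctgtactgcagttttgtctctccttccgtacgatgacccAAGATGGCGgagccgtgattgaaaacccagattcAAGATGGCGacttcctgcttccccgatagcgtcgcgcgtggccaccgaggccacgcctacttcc
MRPL11: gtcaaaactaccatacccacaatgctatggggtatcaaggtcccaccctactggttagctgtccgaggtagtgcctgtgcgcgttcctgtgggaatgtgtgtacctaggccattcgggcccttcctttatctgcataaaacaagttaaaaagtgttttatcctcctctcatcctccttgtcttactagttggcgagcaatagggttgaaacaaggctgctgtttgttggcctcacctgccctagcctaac
MRPS30: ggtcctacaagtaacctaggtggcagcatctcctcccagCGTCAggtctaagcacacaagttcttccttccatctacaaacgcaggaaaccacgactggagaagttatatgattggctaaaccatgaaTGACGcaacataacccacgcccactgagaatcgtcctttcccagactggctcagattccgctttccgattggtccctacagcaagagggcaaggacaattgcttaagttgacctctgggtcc
MRPS25: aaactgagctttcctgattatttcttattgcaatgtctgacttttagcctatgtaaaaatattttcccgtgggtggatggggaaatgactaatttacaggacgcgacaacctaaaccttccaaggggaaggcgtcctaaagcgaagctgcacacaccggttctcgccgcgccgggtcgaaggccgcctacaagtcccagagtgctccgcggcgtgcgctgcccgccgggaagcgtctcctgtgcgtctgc

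The question of the comparison was how the RNA of these genes differed between PKI and inPKI cells. Of the 78 members, 76 had a log2 change below 0, all 49 of the large subunit and 27 of 29 of the small subunit, against 52.6% of the 14275 genes tested. The changes were small, with a median of -0.13 over the members and -0.0074 over all genes tested, and they ran from -0.29 for MRPL52 to 0.089 for MRPS25. On the CPM scale MRPL52 was 18.9% lower in PKI. No member passed the test in either direction (limma on log2(CPM + 1), Benjamini-Hochberg over all genes, threshold 0.05), against a background of 0.028% of genes lower and 0.0981% higher. The lowest adjusted p was 0.127, for MRPL52.

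**Figure D1:**
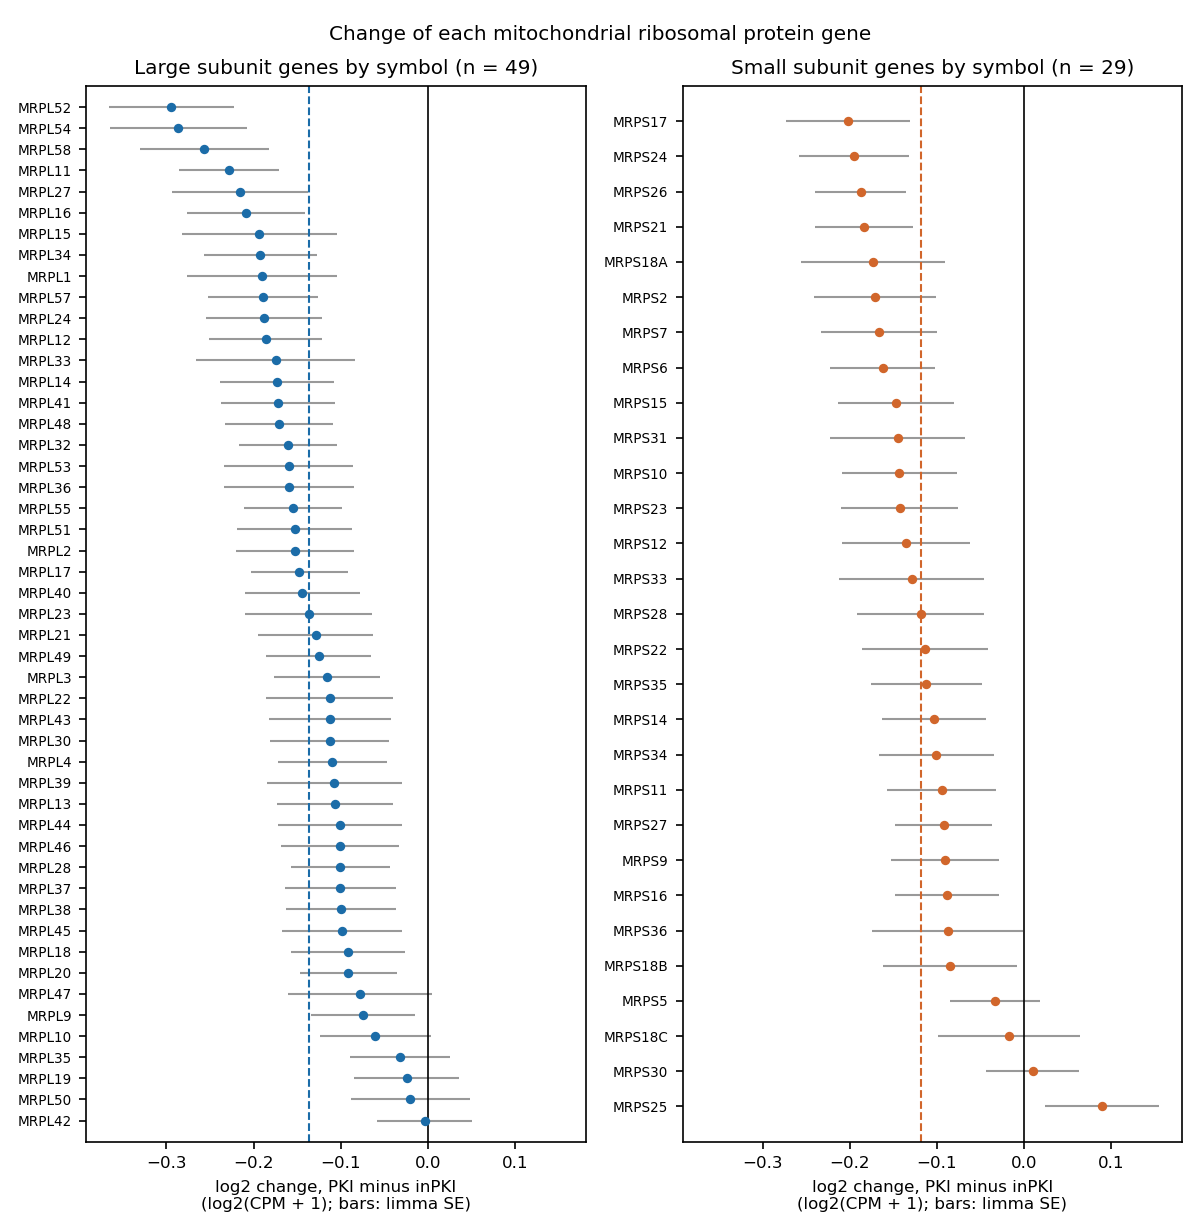
Difference of each member in log2(CPM + 1), PKI minus inPKI, with the large subunit on the left and the small subunit on the right. Points are limma estimates, bars their standard errors, dashed lines the medians of -0.14 (large) and -0.12 (small), and only MRPS30 and MRPS25 lie above 0.

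At an unadjusted p under 0.05, 31 members were lower in PKI (22 large, 9 small) and 0 were higher, beside 6.16% of all genes tested lower and 7.53% higher. All 3 PKI libraries lay below all 3 inPKI libraries for 27 members (17 large, 10 small), and above them for 0 members. Over all genes tested these shares were 8.88% below and 10.9% above. The members share libraries, so these are not independent counts. On the recovered reads edgeR called 0 members (lowest adjusted p 0.0984, for MRPL11; background 0.00701% lower and 0.0701% higher). DESeq2 called 4 members lower and 0 higher among the 77 to which it gave an adjusted p (MRPS28 had none). Its background was 1.34% of genes lower and 1.39% higher, over 7909 genes and not over all genes tested. The members it called were MRPL52, MRPL11, MRPL12 and MRPS26.

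The 4 members called by DESeq2 come from both subunits. MRPL52 (mL52), a protein of the large subunit without a bacterial relative, measured 37.1, 42.2 and 40.1 CPM in PKI A, B and C, against 53.5, 49.4 and 44.5 CPM in inPKI A, B and C. Its highest PKI library lay below its lowest inPKI library, and the log2 change was -0.29 ± 0.071 (SE; limma adjusted p 0.127, DESeq2 adjusted p 0.0156). The gene (ENSG00000172590.18) lies on chromosome 14, 22829879 to 22835037, plus strand. This and the other gene positions are those of GENCODE 29 on GRCh38, not of the authors' alignment.

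MRPL11 (uL11m) is the counterpart of the bacterial protein at the base of the ribosomal stalk, where translation factors bind. It measured 59.2, 61.7 and 56.2 CPM in PKI A, B and C, against 71.7, 70.4 and 65.8 CPM in inPKI A, B and C. The groups did not overlap, and the log2 change was -0.23 ± 0.057 (SE; limma adjusted p 0.130, DESeq2 adjusted p 0.0161). The gene (ENSG00000174547.13) lies on chromosome 11, 66435075 to 66466738, minus strand, and overlaps exons of PELI3 on the other strand. Its promoter window shown above was taken before the RefSeq start and lies inside this GENCODE span, since the annotations differ in the start. The sources used here do not say whether counting used strand, so reads of such overlapping genes may be mixed.

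MRPL12 (bL12m) forms the mobile stalk itself, and has been reported to bind the mitochondrial RNA polymerase. Its values were 141, 146 and 121 CPM in PKI A, B and C, against 153, 156 and 154 CPM in inPKI A, B and C. PKI C lay well below the other 5 libraries, and the log2 change was -0.19 ± 0.065 (SE; limma adjusted p 0.239, DESeq2 adjusted p 0.0479). The gene (ENSG00000262814.7) lies on chromosome 17, 81703357 to 81707526, plus strand, and shares exon sequence with another annotated gene on the same strand.

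MRPS26 (mS26), a small subunit protein without a bacterial relative, measured 69.8, 71.9 and 69.3 CPM in PKI A, B and C, against 79.0, 83.3 and 78.6 CPM in inPKI A, B and C. Here the 3 PKI libraries were close together and all below the inPKI libraries. The log2 change was -0.19 ± 0.052 (SE; limma adjusted p 0.162, DESeq2 adjusted p 0.0480). The gene (ENSG00000125901.5) lies on chromosome 20, 3045945 to 3048254, plus strand.

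**Figure D2:**
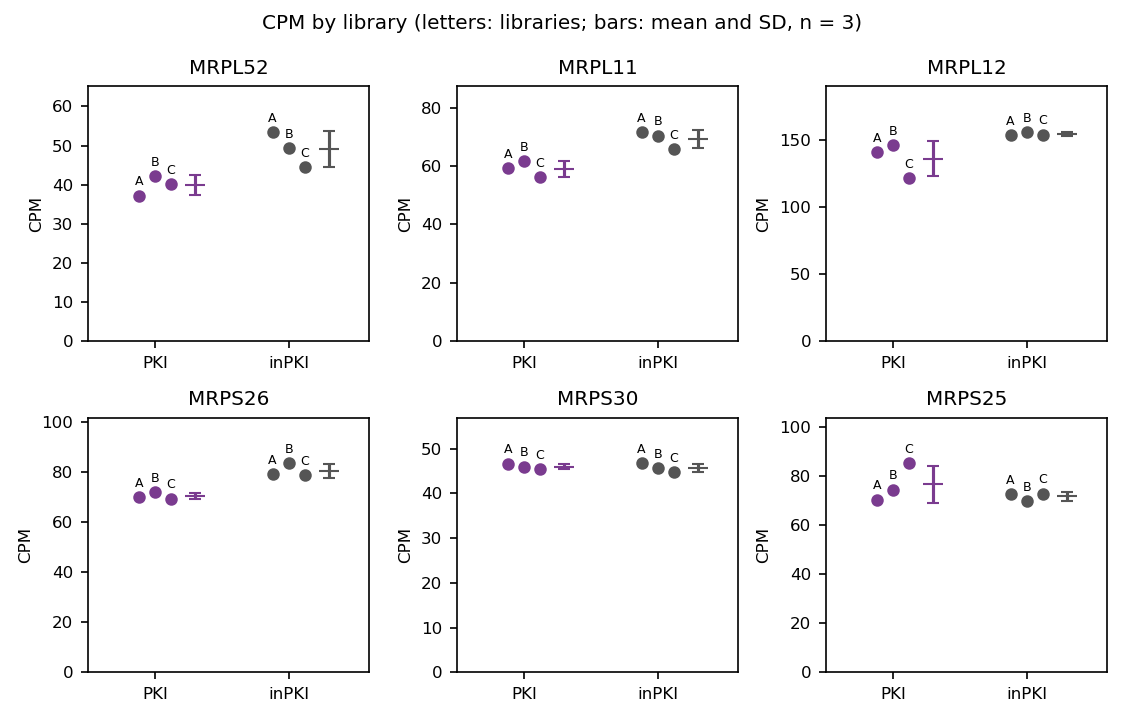
CPM (axis from 0) in each library for 6 members, PKI left and inPKI right in each panel, with the mean and SD beside the points (n = 3). The groups are apart in MRPL52, MRPL11, MRPL12 and MRPS26, and overlap in MRPS30 and MRPS25.

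Of the 17 large subunit members without overlap between groups, MRPL54 and MRPL58 were, with MRPL52 and MRPL11, the 4 furthest below 0. MRPL54 (mL54) had 16.6, 19.0 and 16.6 CPM in PKI A, B and C, against 23.2, 20.5 and 20.5 CPM in inPKI A, B and C, a log2 change of -0.29 ± 0.079 (SE, adjusted p 0.161). MRPL58 (mL62), a peptidyl-tRNA hydrolase built into the ribosome, had 29.9, 32.7 and 26.3 CPM in PKI A, B and C, against 35.6, 36.5 and 34.4 CPM in inPKI A, B and C, a log2 change of -0.26 ± 0.074 (adjusted p 0.174). Neither overlapped between the groups, and neither passed the threshold in limma, edgeR or DESeq2. PKI C was the lowest library for both MRPL54 and MRPL58, and without it their log2 changes were -0.26 and -0.18.

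In the small subunit the members furthest below 0 without overlap, besides MRPS26, were MRPS24, MRPS21 and MRPS2. MRPS24 had 71.0, 69.9 and 62.8 CPM in PKI A, B and C, against 82.8, 73.5 and 77.1 CPM in inPKI A, B and C (log2 change -0.20 ± 0.063, adjusted p 0.212). Its exons are shared with a readthrough gene, URGCP-MRPS24, so its reads may be divided between both. MRPS21 (bS21m) had 73.9, 79.6 and 71.2 CPM in PKI A, B and C, against 87.8, 83.6 and 84.0 CPM in inPKI A, B and C (log2 change -0.18 ± 0.056, adjusted p 0.196). MRPS2 (uS2m) had 93.5, 90.7 and 76.0 CPM in PKI A, B and C, against 97.8, 94.4 and 100.1 CPM in inPKI A, B and C (log2 change -0.17 ± 0.070, adjusted p 0.308). PKI C was the lowest library for MRPS24, MRPS21 and MRPS2. Without it their log2 changes were -0.14, -0.15 and -0.080.

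MRPS30 and MRPS25 were the 2 members above 0, and MRPS25 was chosen for description after its values were seen. MRPS30 carries a small subunit symbol, but its protein (mL65) sits in the large subunit. It measured 46.7, 45.9 and 45.4 CPM in PKI A, B and C, against 46.7, 45.6 and 44.8 CPM in inPKI A, B and C. The ranges overlapped almost entirely, and the log2 change was 0.0097 ± 0.054 (SE, adjusted p 0.955). MRPS25 (mS25) measured 70.2, 74.3 and 85.0 CPM in PKI A, B and C, against 72.4, 69.6 and 72.8 CPM in inPKI A, B and C. PKI A lay inside the inPKI range and PKI B and PKI C above it, and the log2 change was 0.089 ± 0.066 (adjusted p 0.565). MRPS25 (ENSG00000131368.7, chromosome 3, 15042460 to 15065335, minus strand) overlaps exons of NR2C2 on the other strand.

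The 3 MRPS18 genes descend from the same bacterial protein, bS18, and their proteins sit in different places. MRPS18C (bS18m) keeps the bacterial place, MRPS18B (mS40) has another place in the small subunit and MRPS18A (mL66) is in the large subunit. MRPS18A had 35.2, 39.8 and 31.3 CPM in PKI A, B and C, against 43.6, 37.2 and 39.2 CPM in inPKI A, B and C (log2 change -0.17 ± 0.082, adjusted p 0.369). MRPS18B had 59.6, 67.6 and 52.5 CPM in PKI A, B and C, against 66.0, 64.4 and 59.6 CPM in inPKI A, B and C (log2 change -0.085 ± 0.077, adjusted p 0.645). MRPS18C had 28.4, 31.9 and 24.7 CPM in PKI A, B and C, against 27.2, 28.9 and 29.6 CPM in inPKI A, B and C (log2 change -0.017 ± 0.082, adjusted p 0.947). In each of these genes PKI B was the highest PKI library and PKI C the lowest, and the groups overlapped. Differences between the 3 genes were not tested.

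Several members are known from inherited mitochondrial disease, and none of those named here passed the test. In the large subunit MRPL3 (uL3m) averaged 157 ± 12.7 CPM in PKI and 169 ± 2.73 CPM in inPKI (SD, n = 3 each), a log2 change of -0.12 ± 0.061 (SE, adjusted p 0.420). MRPL44 (mL44), a relative of the RNase III enzymes, averaged 30.0 ± 2.46 CPM in PKI and 32.3 ± 1.79 CPM in inPKI (log2 change -0.10 ± 0.071, adjusted p 0.547). In the small subunit MRPS16 (bS16m) averaged 92.8 ± 6.49 CPM in PKI and 98.6 ± 3.57 CPM in inPKI (log2 change -0.089 ± 0.060, adjusted p 0.525). The groups overlapped in all of them. MRPS22 (mS22) averaged 40.8 ± 4.14 CPM in PKI and 44.2 ± 2.60 CPM in inPKI (log2 change -0.11 ± 0.072, adjusted p 0.500). MRPS12 (uS12m), whose bacterial relative takes part in decoding, averaged 37.8 ± 4.11 CPM in PKI and 41.4 ± 1.49 CPM in inPKI (log2 change -0.14 ± 0.074, adjusted p 0.432). MRPS22, MRPS12 and MRPS16 overlap exons of COPB2, SARS2 and DNAJC9, which may share their reads. MRPS36 carries an MRPS symbol and is now counted as a subunit of the 2-oxoglutarate dehydrogenase complex. It averaged 17.8 ± 2.09 CPM in PKI and 18.9 ± 1.16 CPM in inPKI (log2 change -0.088 ± 0.087, adjusted p 0.676).

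Large and small subunit were compared next. The median log2 change was -0.14 over the 49 large subunit genes and -0.12 over the 29 small subunit genes, a difference of -0.018 beside an SD between replicates of 0.014 for that difference. With the members sorted by the place of the protein (MRPS18A and MRPS30 in the large subunit, MRPS36 left out), the medians were -0.14 over 51 genes and -0.12 over 26 genes. The sum of CPM over the large subunit was 2685, 2812 and 2426 in PKI A, B and C, against 2927, 2932 and 2815 in inPKI A, B and C. The sum over the small subunit was 1611, 1680 and 1502 in PKI A, B and C, against 1753, 1742 and 1693 in inPKI A, B and C. In both subunits every PKI sum was below every inPKI sum. The difference of the means was -8.66% of the inPKI mean in the large subunit and -7.59% in the small subunit.

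The ratio of the large to the small subunit sum was 1.67, 1.67 and 1.61 in PKI A, B and C, against 1.67, 1.68 and 1.66 in inPKI A, B and C. Only PKI C stood below the others, and the groups overlapped. With the trend of change with transcript length removed, the difference of the medians was 0.0098, and without PKI C it was -0.0022. The difference between the subunits thus changed in size and in sign between these settings. By systematic name, the 44 members with a u or b name had a median of -0.14, all below 0. The 31 members with an m name had a median of -0.11, with 29 below 0. MRPS18A and MRPS18B were counted among these 31 by name, although they descend from bS18. The 3 members without a systematic name in the annotation, MRPS24, MRPS28 and MRPS36, were in neither class.

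Values by library were uneven within the PKI group. The summed CPM of the 78 members was 4296, 4492 and 3928 in PKI A, B and C, against 4680, 4674 and 4508 in inPKI A, B and C. PKI C was the lowest of the 6 libraries for 69 of the 78 members. The median member lay at -0.10, -0.032 and -0.25 from its inPKI mean (log2) in PKI A, B and C, against 0.016, 0.023 and -0.033 in inPKI A, B and C. PKI B was thus level with inPKI C, and PKI C was furthest from the inPKI libraries. Over all genes tested the same medians were 0.0071, 0.025 and -0.050 in PKI A, B and C.

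Without PKI C the median log2 change over the members was -0.077, 68 members were below 0, and 20 were lower at an unadjusted p under 0.05 (background 4.3%, with 7.55% higher). Without PKI B the median over the members was -0.17 and that over all genes tested -0.023. At that level 53 members were then lower and 0 higher (background 9.48% lower and 7.47% higher). With either library left out, limma called no member.

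**Figure D3:**
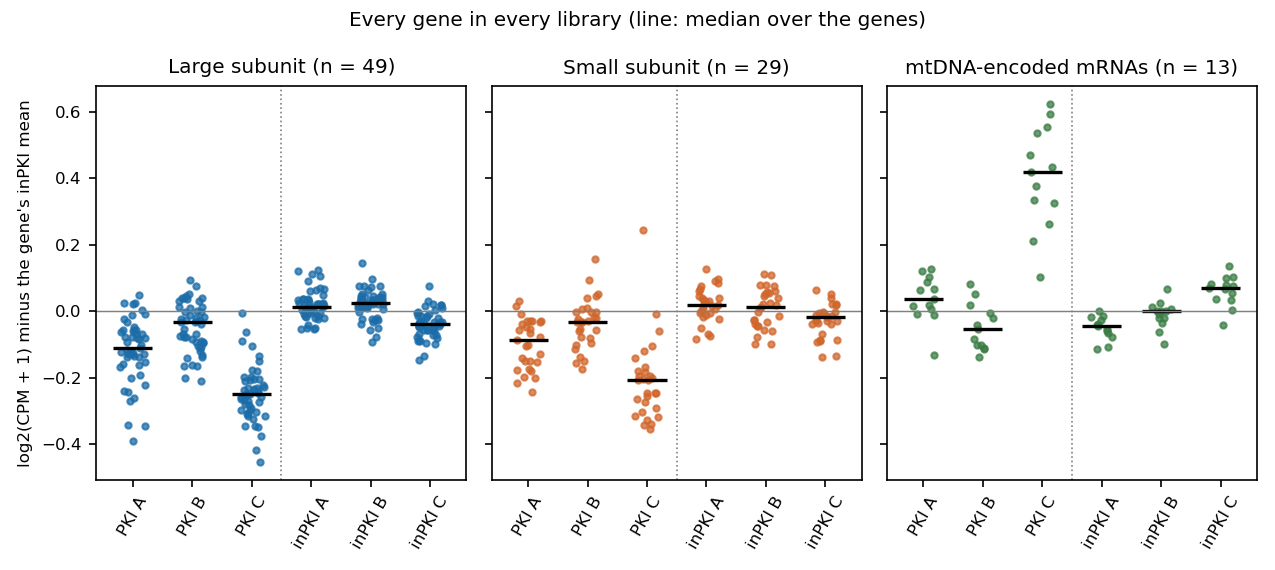
Log2(CPM + 1) of each gene in each library minus the mean of that gene over the inPKI libraries, for the large subunit, the small subunit and the mRNAs of mitochondrial DNA, with PKI A to C left of the dotted line and inPKI A to C right of it. Bars are medians over the genes; in PKI C the subunit medians are -0.25 and -0.21, and the mitochondrial mRNA median is 0.42.

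MRP transcripts are short, and the change followed transcript length over all genes. The transcript used for each gene had a median of 1274 bases over the members and 2766.5 bases over the genes tested. The rank correlation (Spearman) of log2 change with transcript length was 0.43 across 14242 genes and 0.37 across the 78 members, given as a description, since genes share libraries and are not independent replicates. Up to 1000 bases the median log2 change was -0.15 over 21 members and -0.12 over all 1433 genes of that length. From 1000 to 1500 bases it was -0.15 over 28 members and -0.079 over all genes, and from 1500 to 2000 bases -0.11 over 16 members and -0.043 over all genes. From 2000 to 5000 bases it was -0.099 over 12 members and -0.0047 over all genes. The 1 member over 5000 bases, MRPS23, was at -0.14, against a median of 0.069 over all 2823 genes of that length. The members thus lay below the genes of like length in each of these classes, by the smallest margin in the shortest class. The classes were not matched for expression level. Whether other gene families also lie below their classes was not tested, so this is not shown to be particular to the members.

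The genes up to 1000 bases had medians of -0.084, -0.066 and -0.21 in PKI A, B and C relative to their inPKI means, so PKI C was the lowest library for short genes in general. With the length trend removed by lowess, the median over the members was -0.073, against -0.0048 over all genes. Of the 78 members 71 stayed below 0, 15 were lower at an unadjusted p under 0.05 (background 4.66%), and 1, MRPL42, was higher (background 5.59%). MRPL42 was named after its values were seen. With GC content removed as well the median was -0.069 and the counts were 15 lower and 0 higher (background 4.97% and 5.8%). MRPL11 had a log2 change of -0.18 and MRPL52 one of -0.21 with the length trend removed, and neither passed the adjusted threshold.

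**Figure D4:**
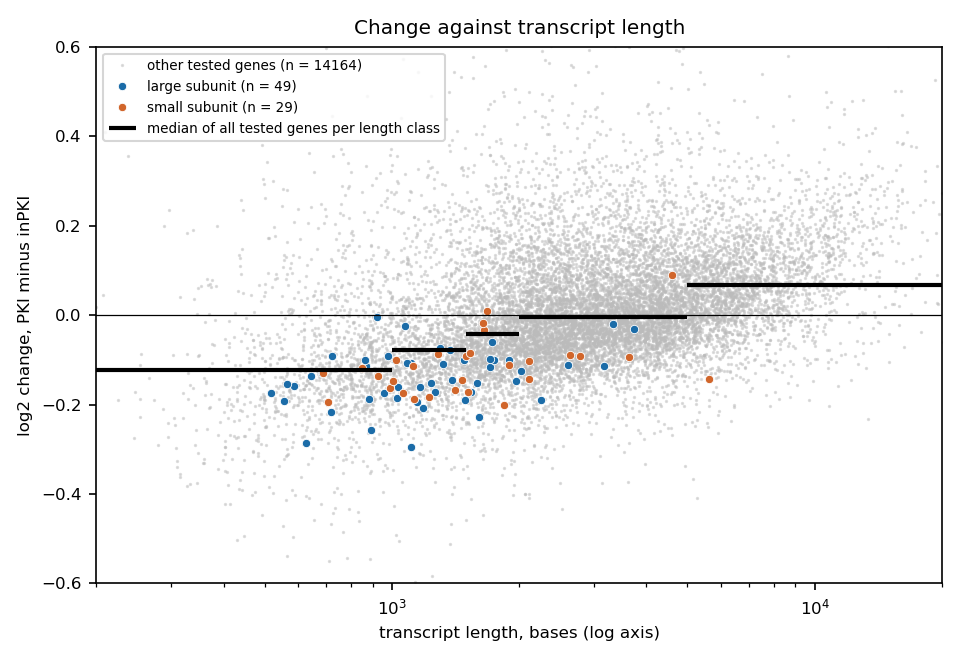
Log2 change, PKI minus inPKI, against transcript length (log axis) for the 14242 genes with a length, with members in colour and horizontal bars for the median of all genes in each length class. The axes leave out 93 genes; the bars climb with length, and most members lie below the bar of their class.

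Levels of different members were compared per length, as CPM per kilobase of transcript. They ran from 9.13 to 141 over the members, with a median of 38.2 over all libraries. The highest in the large subunit were MRPL12, at 132 ± 12.7 in PKI and 150 ± 1.23 in inPKI, and MRPL37 (mL37), at 136 ± 11.5 in PKI and 146 ± 4.72 in inPKI (CPM per kilobase, SD, n = 3 each). The highest in the small subunit were MRPS34 (mS34), at 127 ± 8.04 in PKI and 136 ± 10.8 in inPKI, and MRPS24, at 96.0 ± 6.31 in PKI and 110 ± 6.65 in inPKI. In PKI, MRPL12, MRPL37 and MRPS34 overlapped within mean ± SD. In inPKI, MRPL12 lay above MRPS34 by more than both SDs, and MRPL37 overlapped with each of them. MRPS24 lay below all 3 in both groups.

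At the low end stood MRPS11 (uS11m), at 8.82 ± 0.324 in PKI and 9.44 ± 0.496 in inPKI, and MRPL50 (mL50), at 9.44 ± 0.738 in PKI and 9.56 ± 0.405 in inPKI (CPM per kilobase, SD, n = 3 each). MRPL22 (uL22m), whose bacterial relative lines the peptide exit tunnel, had 9.56 ± 0.983 in PKI and 10.3 ± 0.249 in inPKI, and MRPS23 (mS23) had 9.98 ± 0.753 in PKI and 11.0 ± 0.817 in inPKI. In PKI each of these 4 overlapped the next in this order within mean ± SD, while MRPS11 and MRPS23, the first and the last, were apart. In inPKI MRPL50 and MRPL22 were also apart. Their annotated transcripts are long for the family, at 3644, 3332, 3176 and 5621 bases, and a gene that uses a shorter transcript would have a higher level per length. None of these genes passed the test, with log2 changes of -0.10 ± 0.064 for MRPL37, -0.10 ± 0.066 for MRPS34, -0.095 ± 0.062 for MRPS11, -0.020 ± 0.069 for MRPL50, -0.11 ± 0.072 for MRPL22 and -0.14 ± 0.068 for MRPS23.

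**Figure D5:**
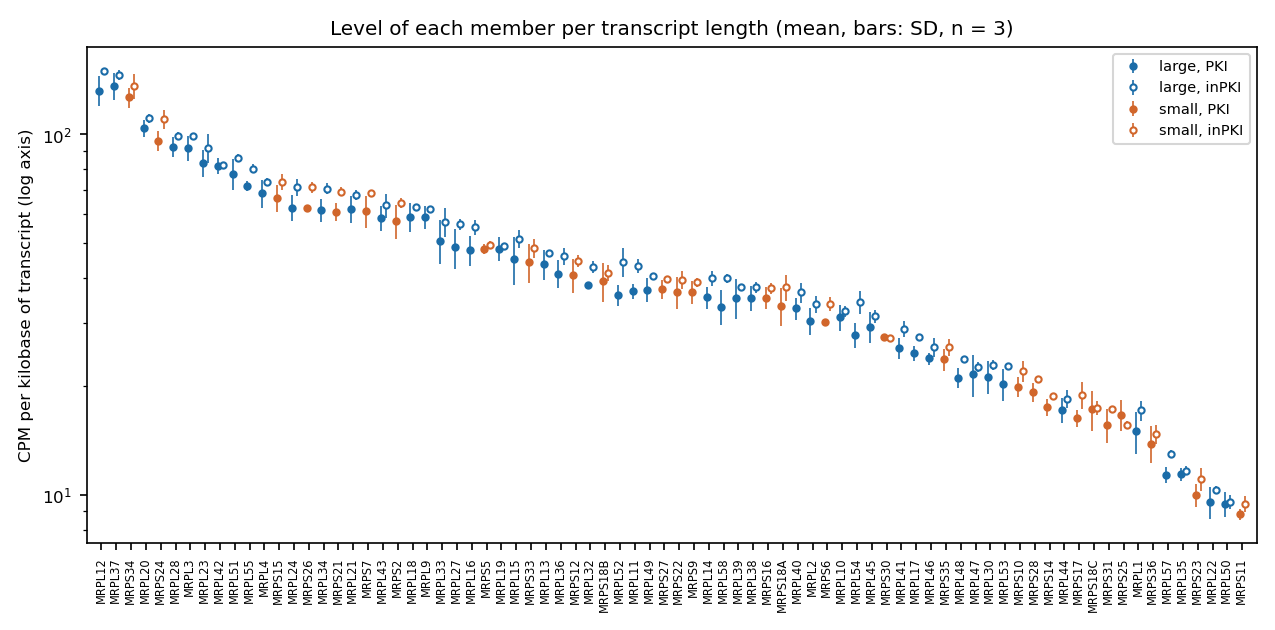
CPM per kilobase of transcript (log axis) of the 78 members, ordered by their mean over all libraries, with PKI as filled and inPKI as open symbols (mean, bars SD, n = 3). MRPL12, MRPL37 and MRPS34 are highest, and MRPS11, MRPL50, MRPL22 and MRPS23 lowest.

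The other genes of mitochondrial translation were described by 6 lists, in none of which a gene passed the test. Of the 5 ribosomal proteins with other symbols, 4 were below 0 and the median log2 change was -0.11. GADD45GIP1 (mL64), near the tunnel exit, averaged 78.4 ± 3.49 CPM in PKI and 89.9 ± 6.73 CPM in inPKI (SD, n = 3 each), a log2 change of -0.19 ± 0.062 (SE, adjusted p 0.212). CHCHD1 (mS37) averaged 23.3 ± 1.71 CPM in PKI and 27.3 ± 1.61 CPM in inPKI, a log2 change of -0.22 ± 0.072 (adjusted p 0.221). The groups did not overlap in either gene. Without PKI C the median of the 5 was -0.027, with 4 below 0, and without PKI B it was -0.18, with all 5 below 0.

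Among 26 assembly factors and rRNA modifiers, 20 were below 0 and the median was -0.063. NDUFAB1, the mitochondrial acyl carrier protein, had a log2 change of -0.17 ± 0.054 (adjusted p 0.199), and RCC1L, an assembly factor, one of -0.19 ± 0.069 (adjusted p 0.264). Among 17 translation factors 13 were below 0, with a median of -0.081. The peptide deformylase gene PDF had a log2 change of -0.31 ± 0.088 (adjusted p 0.170), and SLIRP, which binds mitochondrial mRNAs together with LRPPRC, one of -0.20 ± 0.067 (adjusted p 0.223). Among 12 genes of mitochondrial proteases and chaperones, 11 were below 0 and the median was -0.053. CLPP, a protease subunit, had a log2 change of -0.13 ± 0.061 (adjusted p 0.365), and the chaperonin gene HSPE1 one of -0.15 ± 0.072 (adjusted p 0.388). These medians were nearer 0 or above it without PKI C. The median then was -0.0091 over the assembly factors (16 below 0), -0.027 over the translation factors (10 below 0) and 0.0047 over the proteases and chaperones (5 below 0). Without PKI B the median was -0.11 over the assembly factors, -0.12 over the translation factors and -0.11 over the proteases and chaperones. Without inPKI B that of the translation factors was -0.041.

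Regulators of mitochondrial biogenesis were on both sides of 0, with 8 of 17 below and a median of 0.010 (0.019 without PKI C, and -0.011 without PKI B). The coactivator gene PPARGC1B had a log2 change of 0.14 ± 0.061 (adjusted p 0.327). GABPA, an ETS family factor known to act on many nuclear genes for mitochondrial proteins, had one of 0.12 ± 0.056 (adjusted p 0.350). PPARGC1A was under the filter, at 0.763 ± 0.0530 CPM in PKI and 0.513 ± 0.159 CPM in inPKI.

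The 13 mRNAs of mitochondrial DNA, the messages this ribosome translates, all had log2 changes above 0, with a median of 0.15. Without PKI C, 7 of the 13 were above 0 and 6 below, and the median was 6.0e-05. Their summed CPM was 22142, 20956 and 28685 in PKI A, B and C, against 20525, 21162 and 22209 in inPKI A, B and C. PKI C alone stood outside the range of the other libraries, and it was the highest library for 12 of the 13. MT-ND4L, a complex I subunit, had 292, 278 and 389 CPM in PKI A, B and C, against 268, 250 and 288 CPM in inPKI A, B and C (log2 change 0.24 ± 0.099, adjusted p 0.318). MT-ND5, of the same complex, had a log2 change of 0.24 ± 0.13 (adjusted p 0.447).

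The rRNAs of the mitochondrial ribosome were looked at after their values were seen. MT-RNR2, of the large subunit, had 1652, 1112 and 2372 CPM in PKI A, B and C, against 1053, 1051 and 1184 CPM in inPKI A, B and C (log2 change 0.58 ± 0.18, adjusted p 0.207). MT-RNR1, of the small subunit, had 669, 225 and 1152 CPM in PKI A, B and C, against 227, 251 and 213 CPM in inPKI A, B and C (log2 change 1.27 ± 0.37, adjusted p 0.172). PKI A and PKI C were high for both rRNAs, while PKI B was within the inPKI range. The libraries were made with an mRNA kit, which is not designed to keep rRNA. PKI C, lowest for most members, was thus highest for mitochondrial mRNAs and rRNAs. Whether these move together for a common reason was not tested.

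Promoter windows were found in RefSeq for 69 members (85 windows). A match to CCGGAAG, a core that ETS factors such as GABPA bind, was present in 31.8% of these windows, against 13.7% of the 14782 windows of all genes tested. The members with it (25) had a median log2 change of -0.14 and those without it (44) of -0.12. GCGCANGCG, from the NRF1 motif, was in 17.6% of the windows of members and 11.1% of those of all genes tested. The 14 members with it had a median log2 change of -0.11 and the 55 without it of -0.14. The YY1 motif marked above in MRPL52 was in 3.53% of the windows of members, those of MRPL32, MRPL36 and MRPL52, and in 2.12% of the windows of all genes tested.

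The full CREB element TGACGTCA was in 1.18% of the windows of members, that of MRPL4, against 2.48% of the windows of all genes tested. Its half-site TGACG, which the full element contains, was in 27.1% and 27.7% of windows. The 19 members with a half-site had a median log2 change of -0.11 and the 50 without one of -0.14. Both strands were searched, and a match describes letters only.

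The authors' deposited table gives a mean above 0 to 2069 genes that are at 0 in all 6 libraries, so it was not made from these CPM columns alone, and which libraries it used is not given in the sources used here. After its sign was reversed to give PKI over inPKI, the log2 fold change in the authors' deposited table was below 0 for 74 of 78 members, with a median of -0.12 over the members and 0.0043 over the genes tested here. No member in the authors' deposited table had an adjusted p under 0.05 (lowest 0.821, for MRPL11). Beside this stood 0.0047% of 21299 genes lower and 0.061% higher. At an unadjusted p under 0.05 the authors' deposited table had 5 members lower (MRPL11, MRPL34, MRPL54, MRPL52 and MRPS24) and 0 higher. The background was 1.33% lower and 2.37% higher, over 14242 of the genes tested here. That table may share these libraries, so its values are not given as a separate measurement.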

How the data were processed

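RNA of 6 libraries was sequenced, per the labels' protocols after an RNeasy Plus Mini kit and a TruSeq mRNA kit. Tools named in the submitters' processing notes, without role or setting, are RSEM 1.3.0, STAR 2.5.2b, DESeq2 1.20.0 and cutadapt 1.14, beside the build hg19. The authors deposited CPM, whose file name gives RSEM and TMM (column sums 754299 to 785007). All values (100%, tolerance 0.01 reads) were whole multiples of 1 read, worth 0.0333 to 0.0437 CPM, and reads were recovered by division; they may be rounded RSEM estimates. The other deposited table gives, per the file headers, a mean signal, log2 fold change, standard error, Wald score, p-value, adjusted p-value and signed fold (ratio). Its log2 fold change had the opposite sign to the CPM in 5816 of 5818 genes past 0.1, and was turned. In 2069 genes at 0 in all 6 libraries its mean is above 0, so it was not made from these columns alone.

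A gene was tested where 3 or more of the 6 libraries reached 1 CPM, which left 14275 genes. Tests used log2(CPM + 1), a scale on which changes of low genes come out too small. limma 3.58.1 (R 4.3.3; empirical Bayes with trend, 2-sided, Benjamini-Hochberg over all genes, threshold 0.05) gave every p not credited otherwise. edgeR 4.0.16 and DESeq2 1.42.0 ran on the recovered reads. In limma tests on simulated counts for PKI against inPKI (14275 genes, 5 draws of 200 changed genes), 4.8% of genes changed 1.1-fold, 39.6% of those changed 1.25-fold, 73.6% of those changed 1.5-fold and 90.8% of those changed 2-fold were recovered. The smallest p of an exact permutation test with groups of 3 is 0.1. Counting error is the least error of a value, since PCR copies were not separable.

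Transcript length and GC content came from GENCODE 29 (GRCh38), matched by identifier for 30795 of 30960 genes, using the shortest transcript of the best APPRIS level. This choice can give a gene a shorter length than the transcript it uses. Length classes and the length trend removed are inexact for such genes. The length and GC trends were removed by lowess (span 0.3). Systematic names and promoter windows came from RefSeq. Members and lists were chosen with earlier results of these data known. Members are named if called, if among the 4 largest changes per direction and subunit without overlap of groups, if among the 2 highest or lowest per subunit in CPM per kilobase, if called by another tool, or from a set of 12 known members. From each list the 2 genes with the smallest p are named. Figures were drawn with matplotlib 3.10.9.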

Additional observations from a re-analysis of the deposited data

How the results depend on the processing

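Over 450 recalculated log2 changes of named members, 436 kept direction and side of the threshold, 10 changed sign and 4 passed it. Those 4 are the members DESeq2 called, against 0 in limma. In limma no member was called with any library left out, and DESeq2 was not run that way. The count of all genes called was 18 in the reported fit. It was 4 without a filter on low values and 4 without a trend, 11 with median-ratio scaling, 11 with equal-sum scaling, 11 in edgeR, 10 with the length trend removed, 9 with length and GC removed and 216 in DESeq2. With 1 library left out it was 9 to 114 (9 without inPKI B, 11 without inPKI A, 37 without PKI A, 46 without PKI C, 114 without PKI B). With the replicate block it was 124 and still 0 members (lowest adjusted p 0.0523). The correlations of deviations between same-letter libraries were 0.017 (A), 0.014 (B) and 0.028 (C). They were not set against those between libraries of different letters, so whether the letters pair the libraries is not known. The difference of the large and small medians, -0.018 as reported, was 0.0098 with length removed, -0.00019 with length and GC removed, and -0.037 (without inPKI B) to 0.00026 (without PKI B) with 1 library left out. Of the members that changed sign, MRPS18C was at 0.029 with length removed and 0.023 with length and GC removed. With 1 library left out MRPS18C ran from -0.10 (without PKI B) to 0.074 (without PKI C; 0.0080 without inPKI C) and MRPS30 from -0.0048 (without inPKI C; -0.00069 without PKI A) to 0.025 (without inPKI A). MRPL50 ran from -0.055 (without PKI A) to 0.044 (without PKI C; 0.0022 without inPKI B), MRPS18B from -0.17 (without PKI B) to 0.0042 (without PKI C), and MRPS36 from -0.15 (without PKI B) to 0.0051 (without PKI C). The cause was not tested. In the simulated counts most 1.1-fold changes, the size of the member median, were not recovered at this depth and number of libraries. The changed genes were drawn from all genes tested, so the recovery for genes at the levels of the members is not known. Counts were drawn gene by gene, without a difference shared by many genes of a library such as that of PKI C. Why no member passed in limma was not tested.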

Other observations

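The table also held 20 rows for pseudogenes or antisense genes of members, which the name rule leaves out. Of these, 17 were under the filter, the highest of them at 0.579 CPM in a library. The other 3 are transcribed pseudogenes. MRPS31P5 averaged 6.45 ± 0.533 CPM in PKI and 6.51 ± 0.317 CPM in inPKI (SD, n = 3 each), a log2 change of -0.014 (limma adjusted p 0.968). MRPS31P4 averaged 2.41 ± 0.233 CPM in PKI and 2.29 ± 0.442 CPM in inPKI, and MRPL45P2 averaged 1.69 ± 0.168 CPM in PKI and 1.53 ± 0.365 CPM in inPKI, with log2 changes of 0.057 and 0.094 (limma adjusted p 0.884 and 0.811). For comparison, the member MRPS31 averaged 22.8 ± 2.46 CPM in PKI and 25.2 ± 0.508 CPM in inPKI. MRPS31P5 and MRPS31P4 thus held a sizeable share of the reads counted on MRPS31 and its copies. Whether reads were mixed between MRPS31 and these copies was not tested, so the level of MRPS31 is uncertain by an unknown amount. Exons of 41 of the 78 members overlap another gene, 16 on the same strand and 29 on the opposite one.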
